A study of Homo sapiens with 5 samples.

Results

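Splicing regulators were read from the gene expression table as 45 genes picked by name: 12 SR proteins (SRSF1 to SRSF12), 2 Tra2 proteins, 17 hnRNP proteins, 3 PTB proteins, 8 other regulators of alternative splicing and 3 proteins that recognise the 3′ splice site. They are 45 of the 58174 genes listed, and all 45 were among the 17049 genes with a mean of at least 1 TPM (a level scaled for transcript length and for the total of each library) that entered the test. RNA sequencing had been done on Ishikawa cells, a line established from a human endometrial carcinoma. The 3 sh-LINC00958 libraries are from cells with a lentiviral short hairpin RNA that targets LINC00958, a long non-coding RNA, and the 2 sh-NC libraries are from negative control cells. Puromycin at 2.5 µg/ml was added 72 h after infection to keep stably infected cells. The sources used here give neither the number of hairpins nor the time of harvest. The labels do not say whether the libraries within a group stem from different cultures. The p-values therefore describe library-to-library spread, which may be technical.

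SR proteins bind exonic sequences through RNA recognition motifs and recruit the spliceosome through domains rich in arginine and serine, and they usually favour inclusion of an exon. Many hnRNP proteins and the PTB proteins coat pre-mRNA and often favour skipping, so the balance between these families helps set which exons a cell keeps. Many of these genes hold an exon whose inclusion sends their own transcript to nonsense-mediated decay, and a gene-level value does not show which of the isoforms was present.

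LINC00958 itself stood at 67.2, 67.1 and 58.4 TPM in the sh-LINC00958 libraries, against 119.3 and 137.4 TPM in the sh-NC libraries, or 50.04% of the control mean (limma, adjusted p = 0.0119). Its adjusted p was 0.0545 without sh-LINC00958 replicate 1, and 0.0677 and 0.0871 when the first or the second sh-NC library was left out. Between 27896 and 29411 genes were above 0 in each library, and the first principal component, which held 51.1% of the variance, separated both groups, and sh-LINC00958 replicate 2 came nearest to sh-NC. All 9 markers of endometrial epithelium were detected, at 2479 to 2646 TPM in sum in sh-LINC00958 cells and 2517 to 2521 TPM in sh-NC cells. Within that sum KRT18 rose (135.8% of the control mean, adjusted p = 0.0211 in limma) and EMX2 fell (58.5%, adjusted p = 0.0247), and the other 7 did not pass. The part of these differences in the results that follow was not tested. The 10 markers of fibroblasts, blood and endothelial cells summed to 12.2 to 13.7 TPM in sh-LINC00958 cells and 12.95 to 13.4 TPM in sh-NC cells, with DCN and CD3E at 0 in every library.

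The promoters of 4 of the genes described below are shown, 3 that fell (SRSF7, SRSF10 and HNRNPA3) and the 1 that rose (U2AF1), so that a reader can set their start regions side by side. Each sequence runs 5′ to 3′ on the gene's own strand over 300 bases, with 250 before the annotated start and 50 after it, from RefSeq (GRCh38.p14). Capitals mark the 8-letter matches to E2F or NRF1 motifs.
SRSF7, chr2:38751445-38751744, minus strand: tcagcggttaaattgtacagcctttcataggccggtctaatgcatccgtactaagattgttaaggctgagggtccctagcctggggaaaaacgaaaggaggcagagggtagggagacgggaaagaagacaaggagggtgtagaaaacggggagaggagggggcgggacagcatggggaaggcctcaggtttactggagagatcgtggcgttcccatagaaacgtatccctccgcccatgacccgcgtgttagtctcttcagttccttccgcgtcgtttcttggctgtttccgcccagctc
SRSF10, chr1:23980278-23980577, minus strand: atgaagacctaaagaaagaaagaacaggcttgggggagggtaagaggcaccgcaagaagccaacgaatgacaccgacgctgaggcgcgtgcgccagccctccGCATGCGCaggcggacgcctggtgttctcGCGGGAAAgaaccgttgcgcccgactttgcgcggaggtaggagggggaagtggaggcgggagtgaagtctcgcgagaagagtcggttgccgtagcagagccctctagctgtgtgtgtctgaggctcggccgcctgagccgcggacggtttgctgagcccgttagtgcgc
HNRNPA3, chr2:177212544-177212843, plus strand: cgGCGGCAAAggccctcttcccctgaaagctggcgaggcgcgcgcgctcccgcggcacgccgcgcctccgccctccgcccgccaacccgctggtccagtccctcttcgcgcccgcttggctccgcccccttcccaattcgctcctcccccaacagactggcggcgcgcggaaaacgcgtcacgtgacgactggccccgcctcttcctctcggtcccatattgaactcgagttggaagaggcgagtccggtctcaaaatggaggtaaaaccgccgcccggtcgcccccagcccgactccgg
U2AF1, chr21:43107521-43107820, minus strand: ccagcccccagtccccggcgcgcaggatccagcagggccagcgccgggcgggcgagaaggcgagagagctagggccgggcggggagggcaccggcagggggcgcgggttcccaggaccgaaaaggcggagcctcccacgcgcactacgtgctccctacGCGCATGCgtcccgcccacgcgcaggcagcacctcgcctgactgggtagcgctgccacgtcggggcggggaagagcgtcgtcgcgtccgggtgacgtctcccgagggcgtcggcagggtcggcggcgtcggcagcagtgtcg
In SRSF10 the NRF1 match began 148 bases and the E2F match 119 bases before the start. The match in HNRNPA3 was an E2F word 248 bases before the start, the match in U2AF1 an NRF1 word 92 bases before it, and SRSF7 held no match to either motif. Promoters were listed for 39 of the 45 genes, and both strands were searched. The E2F words TTTGGCGC, TTTCCCGC, TTTCGCGC and TTTGCCGC occurred in 5 of the 39 promoters (SRSF10, TRA2B, HNRNPA3, HNRNPK and SF3B1, 12.8%) and in 3.33% of the promoters of all 27305 genes listed, with the first listed start taken for each gene. The NRF1 word GCATGCGC was found in 2 of the 39 (SRSF10 and U2AF1, 5.13%) and in 3.27% of all. Among the genes that fell or rose at the adjusted threshold given below, 8 had a listed promoter. An E2F word was in 2 of these 8 and the NRF1 word in 2, and all of these promoters are among those shown. SRSF12, HNRNPUL1, PTBP2 and PTBP3, whose promoters are not shown, held neither. The ETS word CCGGAAGT was in 4 of the 39 (10.3%, against 4.44% of all), and the NF-Y word CCAAT in 14 (35.9%, against 35.7%). The AP-1 word TGACTCA or its reverse complement occurred in 1 promoter, that of MBNL2 (2.56%, against 4.92% of all), and the CREB word TGACGTCA in none of the 39, against 1.98% of all. The words were chosen after the expression values had been seen, a promoter can hold several of them, and the matches printed in capitals do not overlap. The 27305 genes were not filtered by expression and include genes outside the 17049 tested, so they are not matched to the 45. A match describes the letters in the window.

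Levels of splicing regulators were lower in sh-LINC00958 cells more often than higher. Of the 45 genes, 9 fell (SRSF2, SRSF7, SRSF10, SRSF12, TRA2A, HNRNPA3, HNRNPUL1, PTBP2 and PTBP3) and 1 rose (U2AF1) at an adjusted p below 0.05 in limma. That is 20% of the genes lower, against 5.68% of all genes tested, while 4.12% of all genes tested were higher. These shares are not matched for level, and 29 of the 45 were in the top 10% of genes tested by mean TPM. With a mean of at least 5 TPM required, 10 of the 44 regulators tested were lower, and 1087 of 12096 genes. The median log2 fold change, sh-LINC00958 over sh-NC on log2(TPM + 1), was -0.20 over the 45 genes and 0.00 over all genes tested. In bulk cultures, fewer cells that express a gene and less RNA per cell cannot be told apart.

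In the TPM as deposited, the direction went beyond the genes that passed the adjusted threshold. Every sh-LINC00958 library lay below both sh-NC libraries for 28 of the 45 genes (62.2%), against 25.5% of all genes tested, and above both for 4 (SRSF8, CELF1, U2AF1 and U2AF2), against 24.4% of all. The groups overlapped for the other 13. With the trend on GC content and length removed, described below, 28 of the 45 fold changes were negative, against 35 as deposited. The median was then -0.04, against -0.20 as deposited. At an unadjusted p below 0.05, 16 of the 45 genes were lower, against 2784 of the 17049 genes tested (16.3%). Only 2 of the 45 were higher, against 2446 of the 17049 (14.3%). With 3 against 2 libraries an exact two-sided permutation test of a single gene cannot go below 0.1. The counts rested on all 5 libraries: the number of genes lower in limma was 1 without sh-LINC00958 replicate 1, 13 without replicate 2, 1 without replicate 3, and 0 without either sh-NC library. Over all genes tested the number lower in the same fits was 51, 1486, 145, 12 and 6, against 969 with all libraries, so the count over the whole table moved as well. The number higher was 0 without any of those libraries except sh-LINC00958 replicate 2, whose removal gave 2. The median fold change of the 45 genes was -0.22 without sh-NC replicate 1, against -0.02 over all genes tested. Without sh-NC replicate 2 it was -0.20, against 0.02 over all genes tested.

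**Figure D1:**
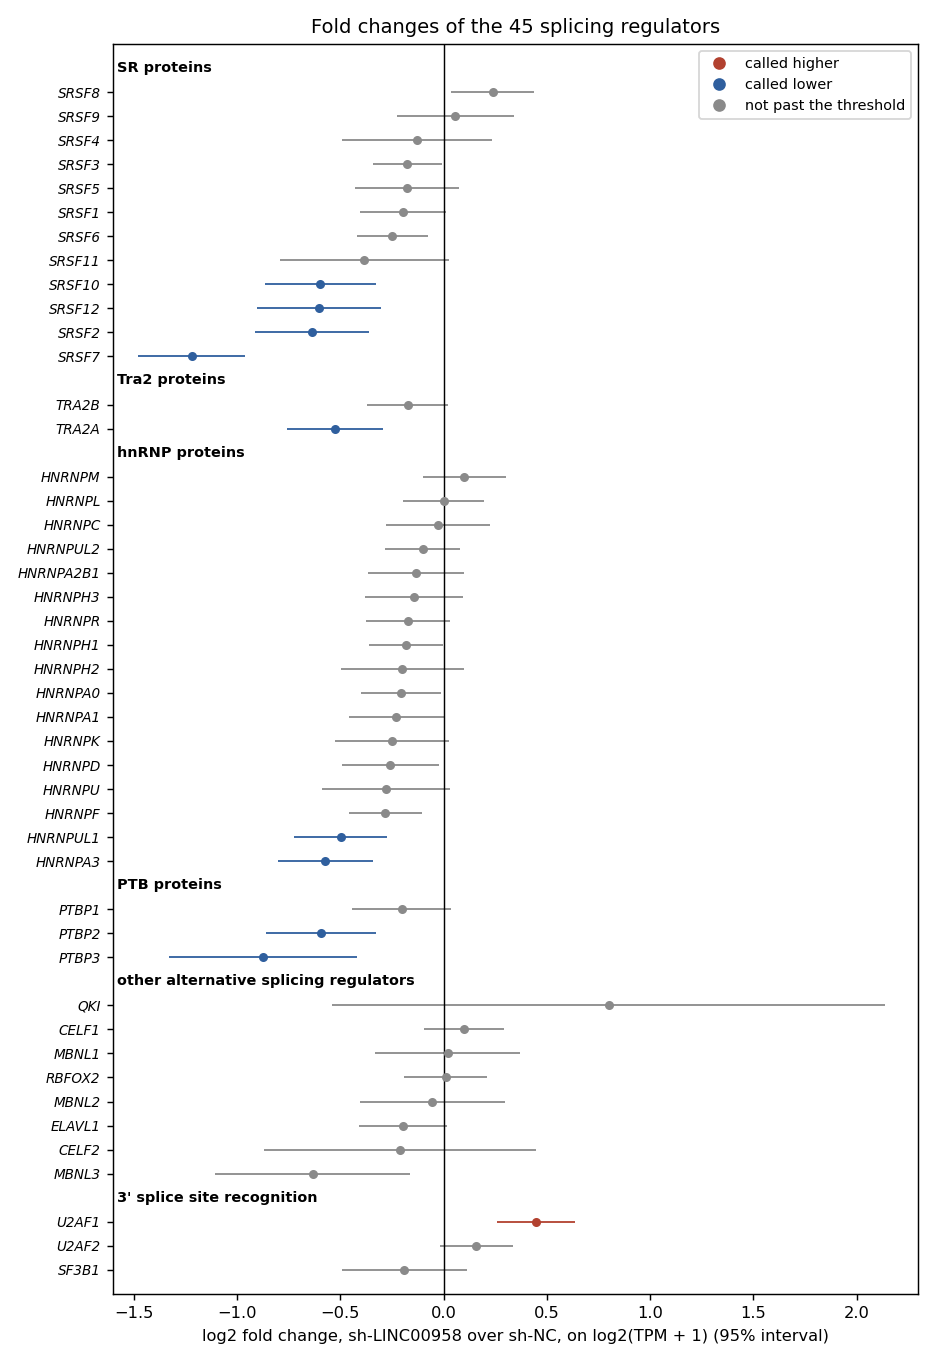
Log2 fold change on log2(TPM + 1), sh-LINC00958 over sh-NC, of the 45 splicing regulators by role, with 95% intervals from limma on 3 and 2 libraries. The 9 genes that fell lie left of 0 in the SR, Tra2, hnRNP and PTB groups, U2AF1 lies right of 0, and QKI has the widest interval.

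In sum, the 45 genes took 8655, 9208 and 8369 TPM in sh-LINC00958 cells, against 10015 and 10145 TPM in sh-NC cells, so the mean was 86.7% of the control mean. SR proteins summed to 1290, 1458 and 1258 TPM in sh-LINC00958 cells, against 1735 and 1670 TPM in sh-NC cells (78.4%). The hnRNP proteins summed to 5807, 6156 and 5534 TPM in sh-LINC00958 cells, against 6620 and 6652 TPM in sh-NC cells (87.9%). The sums of both families were therefore lower in sh-LINC00958 cells with no overlap between groups, and the SR sum was the further below its control. By gene the families were closer, with median log2 fold changes of -0.22 (SR) and -0.20 (hnRNP). With the GC and length trend removed, described below, these medians were -0.07 and -0.04. SRSF7 alone made up a mean of 6.95% of the SR sum in sh-LINC00958 cells and 12.8% in sh-NC cells. The ratio of the SR sum to the hnRNP sum was 0.222, 0.237 and 0.227 in sh-LINC00958 cells, against 0.262 and 0.251 in sh-NC cells. By contrast, the 8 other regulators summed to 334.9, 326.3 and 323.7 TPM in sh-LINC00958 cells, against 318.9 and 327.5 TPM in sh-NC cells, and these groups overlapped.

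**Figure D2:**
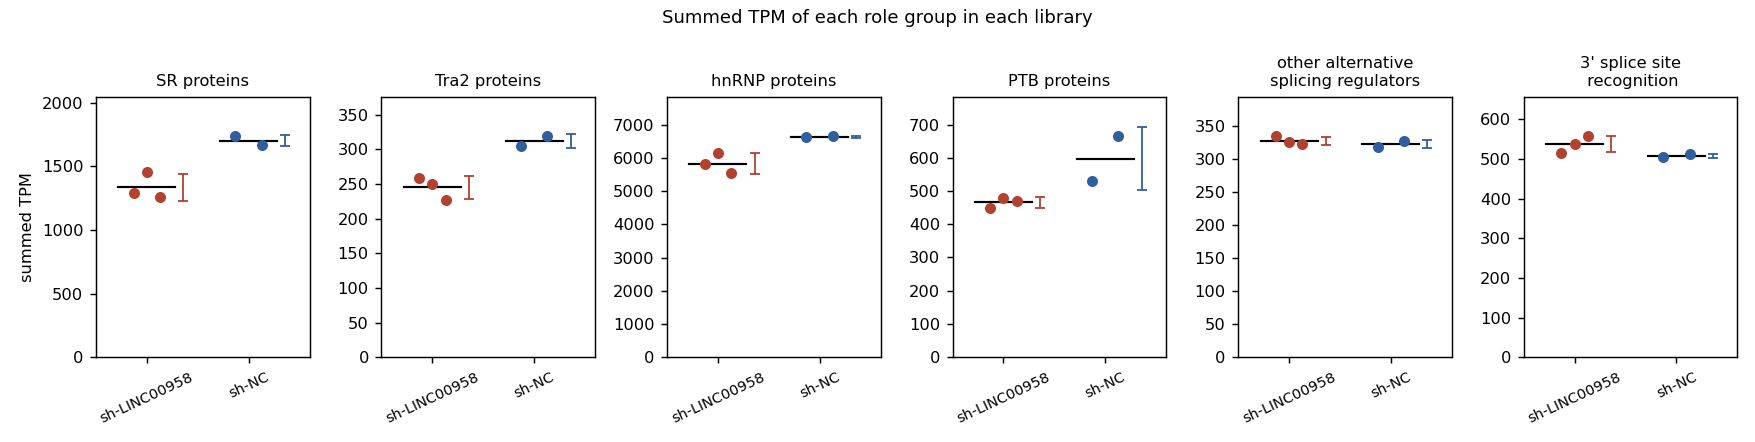
Summed TPM of each role group in each library, sh-LINC00958 left and sh-NC right in each panel, with the group mean as a horizontal line, 1 SD to either side as an error bar and each axis starting at 0. The SR, Tra2, hnRNP and PTB sums of sh-LINC00958 cells lie below both sh-NC libraries, the sum of the other regulators overlaps, and that of the 3′ splice site proteins lies above.

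Among the 12 SR proteins, 4 fell (33.3%, against 5.68% of all genes tested) and none rose (against 4.12%) at the adjusted threshold in limma. Of the 12, 6 were lower and 1 higher (SRSF8) at an unadjusted p below 0.05, where 16.3% and 14.3% of all genes tested were. SRSF7 (ENSG00000115875, chr2:38743599-38751494, minus strand, GRCh38), a shuttling SR protein that also takes part in mRNA export, had the lowest fold change of the 45 genes. It stood at 92.99, 99.23 and 86.05 TPM in sh-LINC00958 cells, against 235.9 and 199.8 TPM in sh-NC cells. The highest sh-LINC00958 library was under both controls by a wide margin, and the mean was 42.6% of the control mean (92.8 ± 6.59 TPM, SD, n = 3, against 217.8 ± 25.5 TPM, n = 2). The log2 fold change was -1.22 (SE 0.106, 95% interval -1.48 to -0.96, adjusted p = 0.0079 in limma). SRSF7 still passed without sh-LINC00958 replicate 1 (adjusted p = 0.0444 in limma), but not without sh-NC replicate 1 (0.0623) or sh-NC replicate 2 (0.0567). SRSF3, its closest relative among the SR proteins, stood at 118.5, 121.4 and 119.6 TPM in sh-LINC00958 cells, against 137.0 and 133.8 TPM in sh-NC cells, and did not pass (adjusted p = 0.146 in limma). The ratio of SRSF7 to SRSF3 was 0.785, 0.817 and 0.719 in sh-LINC00958 cells, against 1.72 and 1.49 in sh-NC cells, so SRSF7 was the less abundant of the pair in every sh-LINC00958 library and the more abundant in both sh-NC libraries. SRSF7 made up 6.81% to 7.21% of the SR sum in sh-LINC00958 cells and 11.96% to 13.6% in sh-NC cells.

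SRSF2, an SR protein that activates exons and is a recurrent target of mutation in myelodysplastic syndromes, stood at 88.07, 108.5 and 103.5 TPM in sh-LINC00958 cells, against 163.4 and 148.2 TPM in sh-NC cells. The groups did not overlap, and the log2 fold change was -0.64 (SE 0.112, 95% interval -0.91 to -0.36, adjusted p = 0.0292 in limma). SRSF2 (chr17:76734115-76737374, minus strand) overlaps MFSD11 on the opposite strand. The strand setting of the counting is not given in the sources used here, so reads from the overlap cannot be told apart. MFSD11 was at 26.3, 23.8 and 24.1 TPM in sh-LINC00958 cells and 24.0 and 22.1 TPM in sh-NC cells (adjusted p = 0.556 in limma), well below the level of SRSF2 in every library.

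SRSF10, which acts as a general splicing repressor when dephosphorylated after heat shock, stood at 114.9, 132.95 and 105.8 TPM in sh-LINC00958 cells, against 179.5 and 176.75 TPM in sh-NC cells. Its log2 fold change was -0.60 (SE 0.109, 95% interval -0.87 to -0.33, adjusted p = 0.0315 in limma). SRSF12, a relative of SRSF10 and the least abundant SR protein in these cells, was at 7.65, 8.25 and 6.95 TPM in sh-LINC00958 cells, against 11.6 and 12.5 TPM in sh-NC cells. With a log2 fold change of -0.60 (SE 0.123, adjusted p = 0.0388 in limma), its fold change was close to that of SRSF10 at a far lower level. The calls of SRSF2, SRSF10 and SRSF12 were lost on leaving out sh-LINC00958 replicate 1 (adjusted p between 0.0826 and 0.125), replicate 3 (0.0713 to 0.0884), the first sh-NC library (0.1503 to 0.1523) or the second (0.132 to 0.192). None changed direction.

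The other 8 SR genes did not pass. SRSF9, the most abundant SR gene by the mean over all 5 libraries (215.2 TPM, against 210.5 TPM for SRSF11, which was above SRSF9 in both sh-NC libraries), was at 213.7, 249.8 and 194.0 TPM in sh-LINC00958 cells, against 206.4 and 212.4 TPM in sh-NC cells, with overlapping groups (log2 fold change 0.06, 95% interval -0.23 to 0.34, adjusted p = 0.773 in limma). Its share of the SR sum was 16.6%, 17.1% and 15.4% in sh-LINC00958 cells, against 11.9% and 12.7% in sh-NC cells. SRSF6, which like SRSF4 and SRSF5 has a pair of RNA recognition motifs, was below both controls in each sh-LINC00958 library (145.6, 151.6 and 142.3 TPM against 171.1 and 177.1 TPM in sh-NC cells) with a log2 fold change of -0.25 (adjusted p = 0.0789 in limma). SRSF1, the founding member of the family, was at 155.8, 179.9 and 167.0 TPM in sh-LINC00958 cells, against 195.0 and 189.1 TPM in sh-NC cells (adjusted p = 0.179 in limma). The libraries of SRSF1, SRSF3, SRSF5, SRSF6 and SRSF11 lay below both controls, those of SRSF4 and SRSF9 overlapped, and those of SRSF8 lay above, at 41.0, 39.1 and 41.7 TPM in sh-LINC00958 cells against 34.3 and 34.3 TPM in sh-NC cells. Fold changes of these 8 ran between -0.38 (SRSF11, 95% interval -0.79 to 0.03) and 0.24 (SRSF8).

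**Figure D3:**
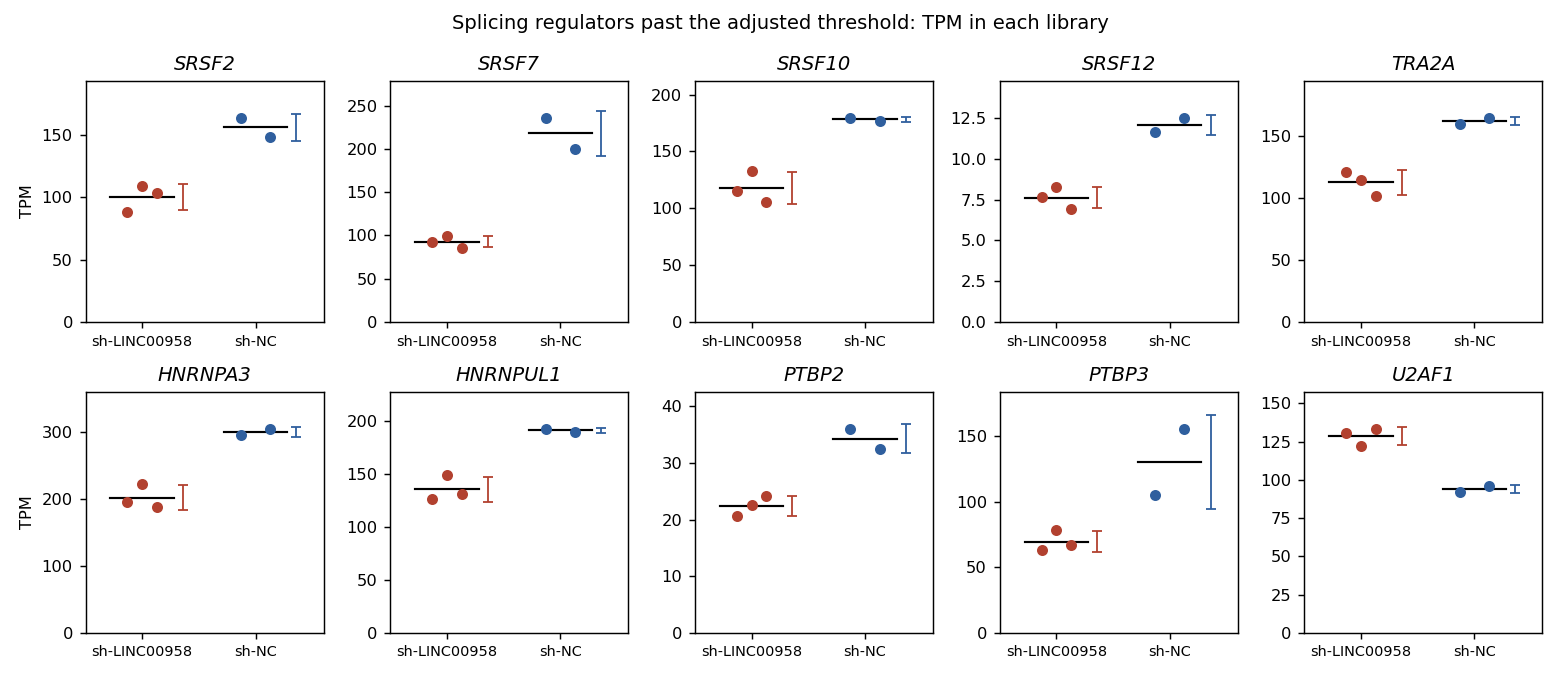
TPM in each library of the 10 splicing regulators that passed an adjusted p of 0.05 in limma, sh-LINC00958 (3 libraries) left and sh-NC (2 libraries) right, with the group mean as a horizontal line, 1 SD to either side as an error bar and each axis starting at 0. In all 10 the groups are apart, with sh-LINC00958 below for 9 and above for U2AF1.

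The Tra2 proteins are SR-like activators of exons rich in GAA repeats. TRA2A was at 121.5, 115.1 and 101.9 TPM in sh-LINC00958 cells, against 160.0 and 165.0 TPM in sh-NC cells. It fell by 0.53 on the log2 scale (SE 0.0954, 95% interval -0.76 to -0.29, adjusted p = 0.0309 in limma). TRA2B was at 137.6, 134.7 and 124.8 TPM in sh-LINC00958 cells, against 145.1 and 153.8 TPM in sh-NC cells. It did not pass (log2 fold change -0.17, adjusted p = 0.198 in limma). The ratio of TRA2A to TRA2B was 0.883, 0.855 and 0.817 in sh-LINC00958 cells, against 1.10 and 1.07 in sh-NC cells, so TRA2B was the more abundant of the pair in every sh-LINC00958 library and TRA2A in both sh-NC libraries. The call of TRA2A was lost without sh-LINC00958 replicate 1 (adjusted p = 0.0808 in limma), replicate 3 (0.0657), the first sh-NC library (0.140) or the second (0.160).

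Among the 17 hnRNP proteins, 2 fell (11.8%, against 5.68% of all genes tested) and none rose (against 4.12%) at the adjusted threshold in limma. Of the 17, 6 were lower and 0 higher at an unadjusted p below 0.05, where 16.3% and 14.3% of all genes tested were. HNRNPA3, a member of the A/B subfamily that packages nascent RNA, was at 196.0, 223.4 and 187.7 TPM in sh-LINC00958 cells, against 295.9 and 305.9 TPM in sh-NC cells. The groups were apart, with a log2 fold change of -0.57 (SE 0.0937, 95% interval -0.80 to -0.34, adjusted p = 0.0261 in limma). Its 15 annotated processed pseudogenes summed to 20.1 to 23.4 TPM in sh-LINC00958 cells and 22.4 to 28.8 TPM in sh-NC cells, and with them added the adjusted p was 0.0239 in limma. The ratio of HNRNPA3 to its relative HNRNPA2B1 was 0.329, 0.315 and 0.308 in sh-LINC00958 cells, against 0.413 and 0.448 in sh-NC cells.

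HNRNPUL1, which is also known from the DNA damage response, was at 126.1, 148.8 and 130.9 TPM in sh-LINC00958 cells, against 192.7 and 189.6 TPM in sh-NC cells (log2 fold change -0.50, SE 0.0924, 95% interval -0.73 to -0.27, adjusted p = 0.0321 in limma). HNRNPUL2, its paralog, had a fold change of -0.10 and did not pass (adjusted p = 0.403 in limma). The ratio of HNRNPUL1 to HNRNPUL2 was 1.55, 1.69 and 1.57 in sh-LINC00958 cells, against 2.13 and 2.09 in sh-NC cells. HNRNPUL1 overlaps TGFB1 on the opposite strand, which was at 3.97 to 4.97 TPM over the 5 libraries. The calls of HNRNPA3 and HNRNPUL1 were lost without sh-LINC00958 replicate 1 (adjusted p = 0.0965 and 0.108 in limma), replicate 3 (0.0675 and 0.0851), the first sh-NC library (0.126 and 0.153) or the second (0.146 and 0.154).

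The other 15 hnRNP genes did not pass, and they include the most abundant regulators. HNRNPK, a KH-domain protein that binds runs of cytosine, had the highest mean level of the 45 genes, at 856.6, 828.8 and 678.3 TPM in sh-LINC00958 cells, against 923.4 and 940.0 TPM in sh-NC cells (log2 fold change -0.25, 95% interval -0.53 to 0.03, adjusted p = 0.197 in limma). HNRNPA1, a widely studied exon-skipping factor, was at 779.15, 847.0 and 698.8 TPM in sh-LINC00958 cells, against 907.2 and 904.1 TPM in sh-NC cells (adjusted p = 0.165 in limma). It has 72 annotated processed pseudogenes, which summed to 129.99 to 154.2 TPM in sh-LINC00958 cells and 129.2 to 145.4 TPM in sh-NC cells, so its value is uncertain by how reads were shared among copies. HNRNPF, which binds runs of guanine, came nearest to the threshold: 327.2, 336.0 and 305.2 TPM in sh-LINC00958 cells, against 388.4 and 397.0 TPM in sh-NC cells (log2 fold change -0.28, adjusted p = 0.0625 in limma, and 0.0455 without sh-LINC00958 replicate 2). HNRNPL, HNRNPC and HNRNPM overlapped between groups, with log2 fold changes of 0.00, -0.03 and 0.10. Of the 17 hnRNP genes, 15 had a negative fold change. For 11 of them every sh-LINC00958 library was below both controls (64.7%, against 25.5% of all genes tested). With the trend on GC content and length removed, described below, 11 of the 17 were negative and the median of the 17 was -0.04, against -0.20 as deposited.

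PTB proteins bind pyrimidine-rich tracts and repress nearby exons. PTBP1, the main form in most non-neuronal cells, was at 365.4, 378.0 and 377.7 TPM in sh-LINC00958 cells, against 389.3 and 476.0 TPM in sh-NC cells, and did not pass (log2 fold change -0.20, 95% interval -0.45 to 0.04, adjusted p = 0.220 in limma). Its fold change was -0.35 without the first sh-NC library, -0.06 without the second, and -0.40 with the GC and length trend removed. PTBP2, the form known from neurons, was at 20.6, 22.5 and 24.1 TPM in sh-LINC00958 cells, against 36.1 and 32.5 TPM in sh-NC cells, and fell by 0.59 on the log2 scale (SE 0.109, 95% interval -0.86 to -0.33, adjusted p = 0.0319 in limma). PTBP3 was at 62.9, 78.5 and 67.2 TPM in sh-LINC00958 cells, against 104.9 and 155.8 TPM in sh-NC cells (log2 fold change -0.88, SE 0.186, 95% interval -1.33 to -0.42, adjusted p = 0.0420 in limma). Both had groups that were apart, and the PTBP3 controls were far apart from each other. Its fold change was -1.16 when sh-NC replicate 1 was left out (adjusted p = 0.0750 in limma) and -0.59 when replicate 2 was (adjusted p = 0.158 in limma). Leaving out sh-LINC00958 replicate 1 or replicate 3 also ended the calls of PTBP2 (adjusted p = 0.108 and 0.0639 in limma) and PTBP3 (0.128 and 0.105), and PTBP2 was also lost without the first sh-NC library (0.160) or the second (0.135). PTBP1 made up 78.9% to 81.4% of the PTB sum in sh-LINC00958 cells and 71.7% to 73.4% in sh-NC cells.

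None of the 8 other regulators passed in either direction in limma, with 0 higher and 1 lower (MBNL3) at an unadjusted p below 0.05. Of all genes tested, 14.3% were higher and 16.3% lower at that unadjusted threshold. The muscleblind protein MBNL1, the most abundant of them, was at 104.5, 107.0 and 80.4 TPM in sh-LINC00958 cells, against 90.6 and 100.003 TPM in sh-NC cells (log2 fold change 0.02, 95% interval -0.33 to 0.37, adjusted p = 0.939 in limma). With the GC and length trend removed its fold change was 0.41 (adjusted p = 0.1002 in limma). MBNL3 was at 4.30, 5.57 and 3.43 TPM in sh-LINC00958 cells, against 7.52 and 7.11 TPM in sh-NC cells (log2 fold change -0.63, adjusted p = 0.0909 in limma, and 0.0430 without sh-LINC00958 replicate 2). RBFOX2, which reads GCATG elements, overlapped between groups, with 46.4, 48.5 and 50.4 TPM in sh-LINC00958 cells and 47.2 and 48.9 TPM in sh-NC cells. QKI, a STAR-family protein, was the most uneven: 26.003, 8.35 and 33.6 TPM in sh-LINC00958 cells, against 12.3 and 9.51 TPM in sh-NC cells. Replicates 1 and 3 of sh-LINC00958 were above both controls and replicate 2 was below both, so the log2 fold change of 0.80 had a 95% interval of -0.54 to 2.14 (adjusted p = 0.371 in limma). Without that library the fold change was 1.37 (adjusted p = 0.0233 in limma). MBNL2, the CELF proteins CELF2 and CELF1, and the stabilising RNA-binding protein ELAVL1 (HuR) had fold changes of -0.05, -0.21, 0.10 and -0.20.

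Of the 3 proteins of 3′ splice site recognition, 1 rose and none fell in limma, with 1 higher and 0 lower at an unadjusted p below 0.05. Over all genes tested 4.12% rose and 5.68% fell, and 14.3% and 16.3% were higher and lower at the unadjusted threshold. U2AF1 (ENSG00000160201, chr21:43092956-43107587, minus strand, GRCh38), the U2AF subunit that contacts the AG at the end of the intron, was at 130.6, 122.0 and 133.5 TPM in sh-LINC00958 cells, against 92.0 and 96.0 TPM in sh-NC cells. It rose to 136.9% of the control mean, with a log2 fold change of 0.45 (SE 0.0774, 95% interval 0.26 to 0.64, adjusted p = 0.0284 in limma). U2AF2, its partner on the polypyrimidine tract, was at 211.6, 194.3 and 203.7 TPM in sh-LINC00958 cells, against 179.1 and 184.4 TPM in sh-NC cells, and did not pass (log2 fold change 0.16, adjusted p = 0.196 in limma). The ratio of U2AF1 to U2AF2 was 0.617, 0.628 and 0.656 in sh-LINC00958 cells, against 0.514 and 0.521 in sh-NC cells. SF3B1, the U2 snRNP protein at the branch point, was at 173.7, 222.1 and 219.9 TPM in sh-LINC00958 cells, against 233.9 and 231.7 TPM in sh-NC cells (log2 fold change -0.19, adjusted p = 0.348 in limma).

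The value of U2AF1 is shared with a second annotated copy. U2AF1L5 (ENSG00000275895) is also on chromosome 21, and 96.2% of the 31-base words of its transcripts occur in those of U2AF1. It was at 129.3, 123.1 and 128.4 TPM in sh-LINC00958 cells, against 98.5 and 100.3 TPM in sh-NC cells (log2 fold change 0.35, adjusted p = 0.0378 in limma), and how reads were split between the copies cannot be read from these values. For the sum of the pair, an alternative chosen after seeing the data, the log2 fold change was 0.40 (adjusted p = 0.0285 in limma). The call of U2AF1 was lost without sh-LINC00958 replicate 1 (adjusted p = 0.108 in limma), replicate 3 (0.0755), the first sh-NC library (0.148) or the second (0.139).

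The splicing regulators share features that their selection by name did not use. Their transcripts had a median GC content of 42.6%, against 48.9% over all genes tested, and 38 of the 45 were below that median. The median summed exon length was 6956 bases, against 3989 bases over all genes tested. By mean level, 29 of the 45 were in the top 10% of genes tested, and they lie on 19 chromosomes. Across the 45 genes, which are not independent and share the same 5 libraries, fold change and GC content had a Pearson correlation of 0.25 and a Spearman correlation of 0.33. The lowest GC contents of the genes that fell were those of PTBP2 (37.0%) and PTBP3 (37.7%), and the highest that of HNRNPUL1 (56.0%).

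In each library, the deviation of log2(TPM + 1) from the gene's mean over the libraries was fitted on GC content and log2 exon length. With that trend removed, the median fold change of the 45 genes was -0.04, against 0.01 over all genes tested. Of the 45, 28 then had a negative fold change, against 35 as deposited, and 13 changed sign, 8 of them hnRNP genes. In that fit 3 of the 45 genes were lower, where 2.46% of all genes tested were, and 1 of the 45 was higher, where 2.36% of all were. They were SRSF7 (-0.98, adjusted p = 0.0116 in limma), SRSF2 (-0.67, 0.0392), HNRNPUL1 (-0.65, 0.0264) and U2AF1 (0.52, 0.0351). The other 6 kept a negative fold change and did not pass: SRSF10 (-0.29, 0.0755), SRSF12 (-0.27, 0.155), TRA2A (-0.30, 0.0988), HNRNPA3 (-0.24, 0.0631), PTBP2 (-0.13, 0.564) and PTBP3 (-0.42, 0.189). The fold changes of these 6 were smaller by more than 1.5 times than those from the deposited TPM. Those of SRSF2, HNRNPUL1 and U2AF1 were larger, and that of SRSF7 was smaller. Whether that trend arose in the cells or in library preparation was not tested.

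**Figure D4:**
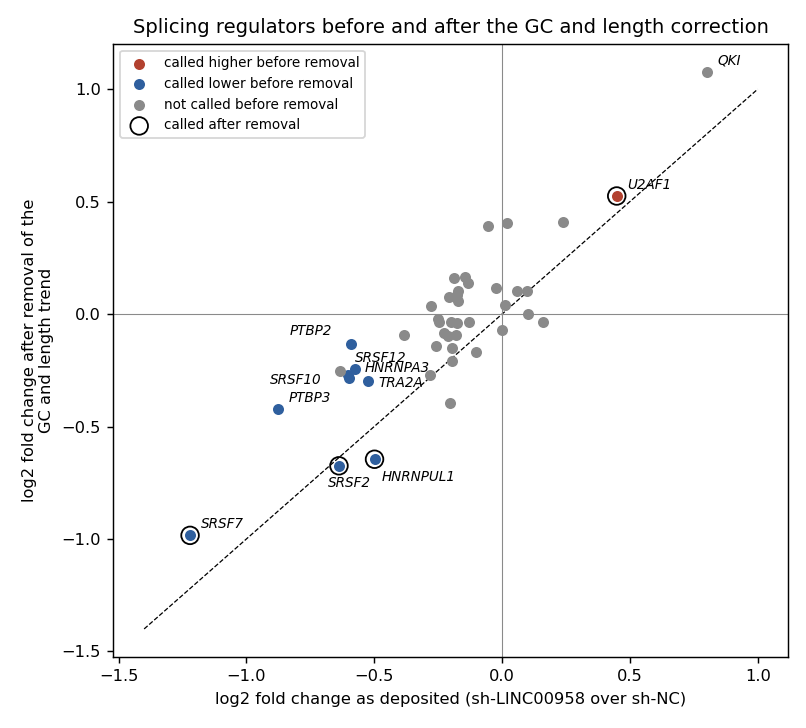
Log2 fold change of each of the 45 genes, sh-LINC00958 over sh-NC, with the GC and length trend taken out (vertical) against the value from the deposited TPM (horizontal), with the line of equality dashed and rings around genes called after the removal. SRSF7 stays far below 0 on both axes at -1.22 and -0.98, while PTBP2 moves to -0.13.

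Around the regulators, 143 genes of the spliceosome and its partners were read as 9 lists, of which 138 gene entries were tested, and 11 rose and 11 fell in limma, where 4.12% of all genes tested were higher and 5.68% lower. Each of these counts is 7.97% of the 138. Of 72 genes in the snRNP, tri-snRNP, catalytic and minor spliceosome lists, the core of the machinery, 9 rose and 2 fell (2.78% lower), with a median fold change of 0.04, and 0.08 with the GC and length trend removed. PHF5A, an SF3B subunit of the U2 snRNP, was at 140.2, 143.3 and 146.8 TPM in sh-LINC00958 cells, against 89.7 and 87.3 TPM in sh-NC cells (log2 fold change 0.69, adjusted p = 0.0103 in limma), and its partner SF3B2 had a fold change of 0.49 (adjusted p = 0.0256). In the tri-snRNP, 4 of 16 genes rose, SART1 (0.77), PRPF31 (0.66), PPIH (0.36) and DDX23 (0.32), and 1 fell, TXNL4A (-0.42). PRPF19 (0.54), the ubiquitin ligase that names the NTC, and the helicase DHX38 (0.35) rose, DHX15 (-0.45), a helicase that disassembles spliceosomes, fell, and SNRNP25 (0.36) of the minor spliceosome rose. None of the 14 Sm and LSm genes passed in limma. At an unadjusted p below 0.05, 2 of the 14 were higher and 4 lower, where 14.3% and 16.3% of all genes tested were.

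Of the 9 kinase and import genes of SR proteins, 2 fell (22.2%, against 5.68% of all genes tested) and none rose in limma. At an unadjusted p below 0.05, 1 of the 9 was higher and 5 were lower, where 14.3% and 16.3% of all genes tested were. SRPK1, which phosphorylates SR proteins in the cytoplasm for nuclear import, was at 92.9, 100.3 and 92.7 TPM in sh-LINC00958 cells, against 120.4 and 124.9 TPM in sh-NC cells (log2 fold change -0.36, adjusted p = 0.0420 in limma). CLK1, the nuclear kinase that releases them from speckles, was at 58.6, 51.7 and 52.8 TPM in sh-LINC00958 cells, against 79.5 and 75.2 TPM in sh-NC cells (log2 fold change -0.50, adjusted p = 0.0305 in limma). With the GC and length trend removed neither passed, with fold changes of -0.18 for SRPK1 (adjusted p = 0.131 in limma) and -0.09 for CLK1 (0.695), and the median of the 9 was -0.06, against -0.27 as deposited. Of the other CLK kinases of the list, CLK2 and CLK3 were at 0.02 and 0.06 as deposited. CLK4 was at 15.2, 19.6 and 12.9 TPM in sh-LINC00958 cells, against 24.8 and 20.9 TPM in sh-NC cells. Its log2 fold change was -0.51 as deposited (adjusted p = 0.135 in limma) and -0.06 with the GC and length trend removed. In the exon junction complex RNPS1 (0.30) rose and MAGOHB (-0.61) fell, and of the nonsense-mediated decay factors SMG5 (0.34) rose.

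Of the other SR-related and hnRNP-like genes, 6 of 38 fell (15.8%, against 5.68% of all genes tested) and none rose in limma. At an unadjusted p below 0.05, 14 of the 38 were lower and 0 higher, where 16.3% and 14.3% of all genes tested were. The median fold change was -0.17. The 6 that fell were SYNCRIP (-0.68), SREK1 (-0.61), MSI2 (-0.61), TIA1 (-0.60), SFPQ (-0.44) and FUBP1 (-0.39). SYNCRIP, also called hnRNP Q, was at 128.5, 111.7 and 120.6 TPM in sh-LINC00958 cells, against 190.4 and 195.9 TPM in sh-NC cells. Once the GC and length trend was taken out, 7 of the 22 called companions still passed: PHF5A, SF3B2, SART1, PRPF31 and PRPF19 higher, and TXNL4A and MSI2 lower. The fold changes of the other genes that fell were smaller by more than 1.5 times in that fit: SYNCRIP -0.26, SREK1 -0.23, TIA1 -0.21, SFPQ -0.25, FUBP1 -0.19, DHX15 -0.04 and MAGOHB -0.20, beside those of SRPK1 and CLK1. Those of the other genes that rose were smaller too: PPIH 0.30, DDX23 0.23, SNRNP25 0.22, DHX38 0.20, RNPS1 0.18 and SMG5 0.18. PLRG1 (0.45, adjusted p = 0.0395 in limma) and SNRPD3 (-0.37, 0.0380) passed in that fit but not as deposited. All 22 calls were lost without sh-LINC00958 replicate 1 or either sh-NC library, 21 without replicate 3 and 4 without replicate 2.

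**Figure D5:**
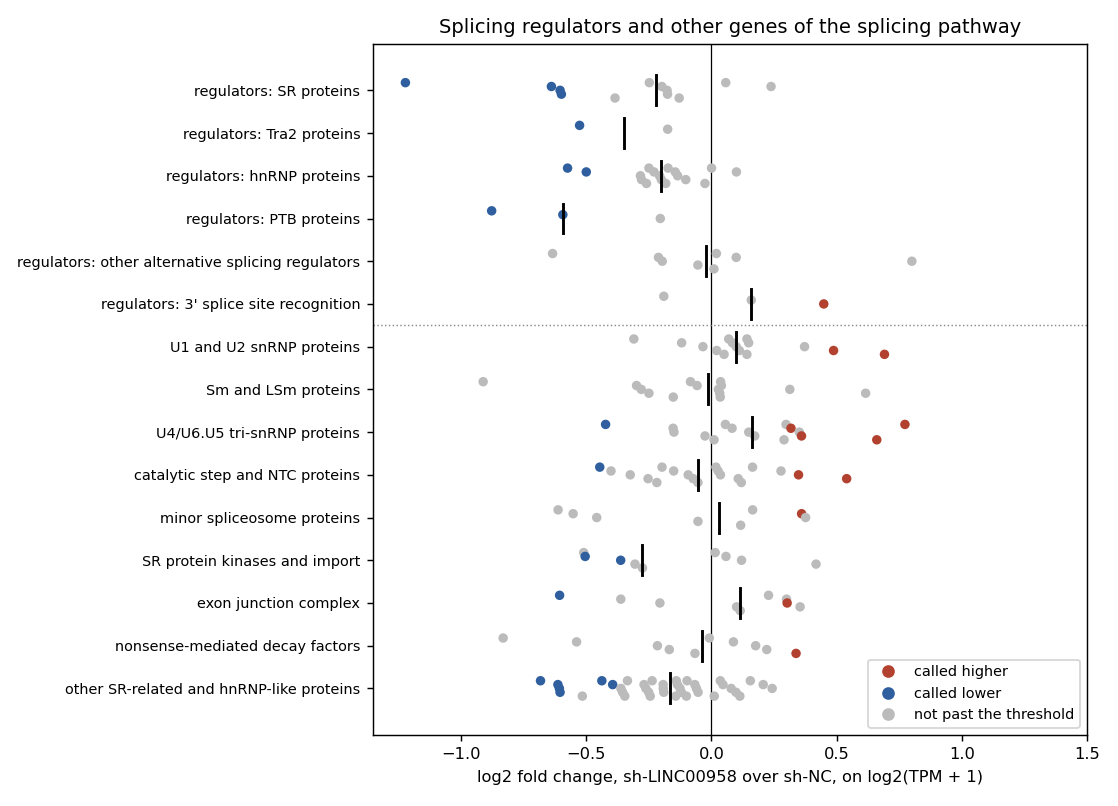
Log2 fold change on log2(TPM + 1), sh-LINC00958 over sh-NC, of each tested gene (points) in the 6 role groups of splicing regulators (above the dotted line) and the 9 companion lists (under it), with each list's median as a vertical bar and colours for genes past an adjusted p of 0.05 in limma. The SR, hnRNP and PTB medians lie at -0.22, -0.20 and -0.59, and the tri-snRNP median at 0.16 with 4 of 16 genes higher.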

How the data were processed

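RNA of Ishikawa cells, 3 sh-LINC00958 and 2 sh-NC libraries, was sequenced from 1 µg of total RNA with an mRNA library kit. The authors deposited TPM values in 1 table of 58174 genes. Per the submitters' processing notes the genome was GRCh38, and the tools named are StringTie 1.3.3b, HISAT2 2.0, Trimmomatic 0.36 and FastQC 0.11.2. For strand setting and annotation release the sources used here give nothing. TPM keeps no sequencing depth, so depth is unknown and no counting interval is given, and each value depends on all other RNAs in the library.

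Coordinates, GC content and exon length came from GENCODE 29, in which 57836 of the gene IDs were found. The test was limma 3.58.1 in R 4.3.3 (lmFit, then eBayes with a mean-variance trend) on log2(TPM + 1), two-sided, for sh-LINC00958 over sh-NC, on the 17049 genes with a mean of at least 1 TPM. The p-values were adjusted by Benjamini-Hochberg over all these genes, with a threshold of 0.05. Folds on this scale understate changes of low genes. Sums and ratios of TPM were not tested.

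The 45 regulators, the role groups and the companion lists were chosen with earlier results of these data known. Values in every library were given for each regulator past the threshold and, in each role group, for the most abundant and the one with the smallest p, and companions past the threshold were named. SRSF1, SRSF3, SRSF6, SRSF8, HNRNPA1, HNRNPF, RBFOX2, U2AF2 and QKI were added after their values had been seen. Alternatives covered pseudocount, filter, scaling, variance model, GC content and length (loess, span 0.3, per library), replicate number, gene copies and each library left out. No pair of libraries held identical values.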

Additional observations from a re-analysis of the deposited data

How the results depend on the processing

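With 1 gene higher and 9 lower in limma as reported, the counts higher and lower were 0 and 1 with no filter (207 and 269 of 35238 genes tested), 0 and 2 in eBayes without the trend (371 and 518 of all genes), 1 and 3 with the GC and length trend removed (401 and 418), and between 0 and 2 and between 0 and 13 over the fits with a library left out. With all libraries 702 and 969 of the 17049 genes passed. In fits without 1 sh-NC library, and in those without 1 sh-LINC00958 library, fewer libraries are compared, and the lone sh-NC library is assumed to vary like the others. With replicate numbers as a replicate block the counts were 0 and 0 (0 and 2 of all genes). With the block and the GC and length trend removed they were 0 and 0 (0 and 0 of all genes). Replicate 3 has no sh-NC library of its number, so the block alone gave the fold changes of the fit without sh-LINC00958 replicate 3 (SRSF7 at -1.168 in both). The block fit also estimates a level for each replicate number, which leaves less to measure the spread. Same-numbered libraries had correlated deviations of only 0.0013 and 0.050, and nothing in the labels says that the numbers mark a shared culture or day. A mean TPM of at least 5 and median-ratio scaling each added HNRNPF to the 9, and the first left CELF2 untested. The counts over all genes rose as well, to 839 and 1087 of 12096 in the first and 761 and 1101 of 17049 in the second. The other alternatives (pseudocounts 0.1 and 5, quantile normalization, robust eBayes and pseudogene copies added) left the counts at 1 and 9. Over all genes these fits gave 702 to 855 higher and 932 to 1034 lower.

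None of the 10 called genes changed direction in any of the 17 alternatives, and SRSF7 passed in 13 of them, the most of the 10. Of all 45 genes, 13 changed sign with the GC and length trend removed, 15 with the block added to that, 3 with the block alone, 1 under quantile normalization and 1 to 3 with a library left out. Among the uncalled genes given with values in every library under the naming rule, SRSF9, MBNL1, TRA2B, SF3B1 and HNRNPK changed sign, and these passed in no fit. SRSF9 was at -0.0405 without sh-LINC00958 replicate 2, with a range of -0.0405 to 0.141 over libraries left out. MBNL1 was at -0.0364, -0.0537 and -0.0507 without sh-LINC00958 replicates 1 and 2 and sh-NC replicate 1, with a range of -0.0537 to 0.1502, and at 0.407 with the GC and length trend removed and 0.494 with the block added, against 0.02 as reported. With the GC and length trend removed TRA2B was at 0.0588 and SF3B1 at 0.158, and with the block added TRA2B was at 0.0669, SF3B1 at 0.063 and HNRNPK at 0.0428. The causes were not tested.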
